A study of Mus musculus with 23 samples.

Results

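Tumors grown from the murine glioblastoma line GL261 were compared by the way the cells had been kept: 3 libraries whose titles add culture as a neurosphere (libraries 89, 90 and 91) were set against 4 libraries whose titles do not (libraries 81, 82, 83 and 84, called adherent-derived here, since the study kept its lines as adherent cultures unless it said otherwise). These 7 libraries, chosen by their labels alone, are 7 of the 23 RNA-seq libraries of the series. All 7 came from ex vivo brain tumors of GL261-luc2 cells, a luciferase-expressing GL261 line, and the study enriched the tumor cells from dissociated tumors of albino C57BL/6 female mice with magnetic beads. No drug treatment is named for any of them, and the labels do not say whether the line was grown as neurospheres before implantation or the tumor cells after it. In the labels, only the sample numbers in the titles mark the libraries as separate samples. The study's figure legends count sorted tumor cells by mice, but do not match mice to these libraries. The p-values measure the spread between these samples, which may be technical.

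Neurospheres are floating clusters that form in serum-free medium with growth factors, and the method is used to keep neural stem cell properties in glioma cells that would otherwise grow attached to plastic. Brain tumors also hold many macrophages: microglia, which live in the brain tissue, border-associated macrophages of the meninges and vessel walls, and cells that arrive as blood monocytes. A bead sort enriches tumor cells but can carry macrophages along. Some of the gene groups below (border-associated macrophages, microglia and inflammatory genes) are set, as ratios, beside the level of the macrophage markers.

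Levels are given as CPM, counts scaled to the library total. Between 7599935 and 10548568 reads were assigned to genes per adherent-derived library and between 8214033 and 8834438 per neurosphere-derived library. Genes that mark the line identified all 7 as GL261: of 178 genes at least 16-fold higher in GL261 than in CT2A bulk tumors (CT2A is the other glioma line of the series), the 144 with enough reads to test summed to between 5364 and 9687 CPM in these libraries and to at most 272.1 CPM in any CT2A library. Adherent library 81 stood apart before any comparison. Its log2 CPM correlated with the other adherent libraries at 0.921 to 0.931 across genes, against 0.967 to 0.979 among those 3 and 0.959 to 0.974 among the neurosphere libraries. It also held the fewest macrophage transcripts, and the results that rest on it are given with and without it.

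The most visible difference was in macrophage transcripts. The 23 genes of a general macrophage list summed to 383.8, 2246, 2196 and 1169 CPM in adherent libraries 81 to 84 and to 12130, 9222 and 8473 CPM in neurosphere libraries 89 to 91. Every neurosphere library lay above every adherent one, and library 81 was the lowest of all. As the mean log2(CPM + 1) of the list, a macrophage score, the values were 3.53, 6.06, 6.07 and 5.2 against 8.54, 8.16 and 8.01, a difference of 3.03 between the group means. In such bulk RNA, more macrophages and more RNA per macrophage cannot be told apart. The 4 adherent-derived GL261 libraries lay near or below the whole, unsorted GL261 tumors of the series (scores of 5.46 to 6.03), while the 3 neurosphere-derived ones lay above the highest of them although they had been sorted for tumor cells. Bulk and sorted libraries were prepared with different kits by the study's methods, so this is a description of levels with no test.

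**Figure D1:**
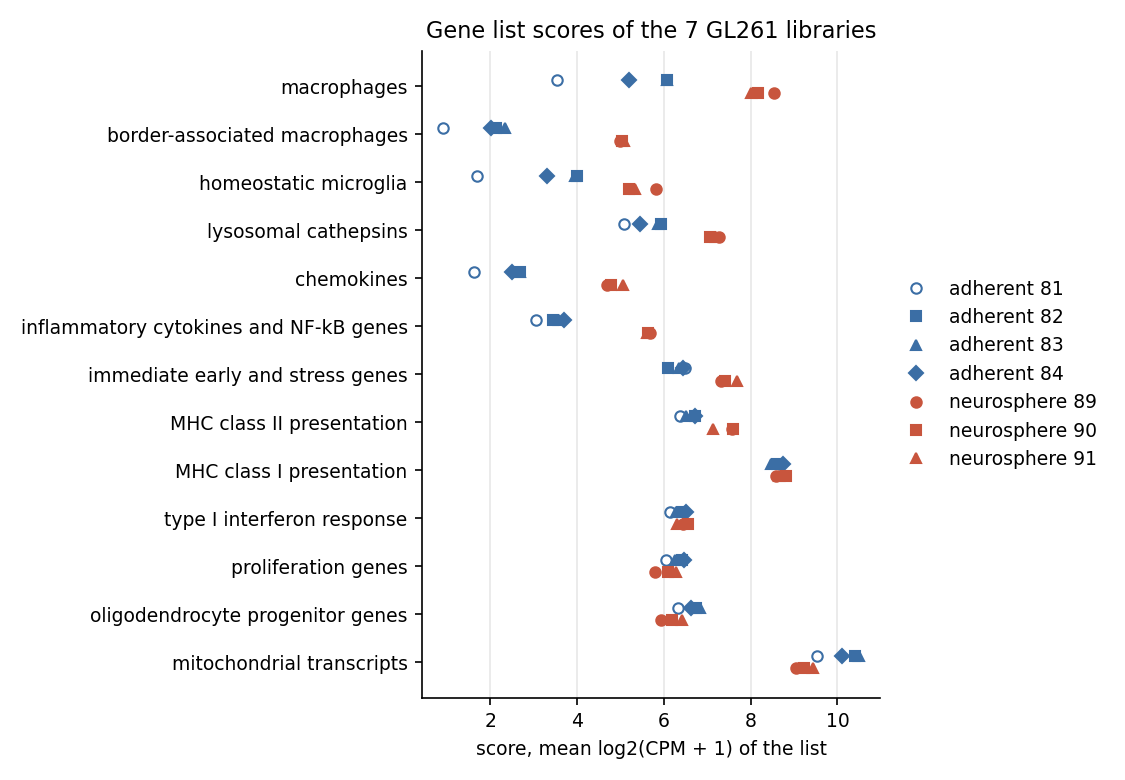
Mean log2(CPM + 1) of 13 gene lists (x axis) in each of the 7 GL261 libraries, 1 marker per library, adherent-derived in blue with library 81 as an open circle and neurosphere-derived in red. The 3 neurosphere-derived libraries sit to the right of the 4 adherent-derived ones for the macrophage list (8.01 to 8.54 against 3.53 to 6.07).

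The quasi-likelihood test of edgeR, with p-values adjusted by the Benjamini-Hochberg method and a threshold of 0.05, called 1167 of 13675 genes (8.53%), of which 1037 were higher in the neurosphere-derived cells (7.58%) and 130 lower (0.951%). All adjusted p-values below come from this test. Of the higher genes, 848 differed at least 2-fold, 536 at least 4-fold and 151 at least 8-fold, whereas 45 of the lower genes differed at least 2-fold. The 3 neurosphere libraries lay entirely above or below the 4 adherent ones in 26.2% of all genes tested. The number of calls depended on the libraries: it was 2435 without adherent library 81 (1761 higher, 12.9%, and 674 lower, 4.92%), 759 without 82, 408 without 84, 297 without neurosphere library 89, 453 without 90 and 776 without 91. Of the genes called with all 7 libraries, 1035 of the 1037 higher and all 130 lower genes were also called without library 81.

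Of the 23 macrophage genes, 22 rose and none fell (median log2 fold change 2.98, beside -0.03 over all genes tested). Without library 81 all 23 rose, with a median of 2.69. Cd68, a glycoprotein of macrophage endosomes, stood at 9.78, 38.5, 42.0 and 22.9 CPM in adherent libraries 81 to 84 and at 286, 228 and 268 CPM in the neurosphere libraries. The groups were far apart, and Cd68 rose by 3.23 on the log2 scale (standard error 0.44, adjusted p = 0.00707). Csf1r, the receptor for the macrophage growth factor CSF1, read 23, 176, 168 and 85.5 CPM against 1144, 738 and 747 CPM (log2 fold change 2.98, standard error 0.60, adjusted p = 0.0216). It did not pass the test without adherent library 84 (adjusted p = 0.0818) or without neurosphere library 89 (0.0956) or 90 (0.0605), with log2 fold changes of 2.87, 2.73 and 3.08. Adgre1, which encodes the F4/80 antigen, read 4.30, 39.4, 37.3 and 19.4 CPM against 265, 248 and 245 CPM (log2 fold change 3.36). Its call was lost without library 84 (adjusted p = 0.0619) or 89 (0.0652). Since the whole list separates the groups, the part of macrophage RNA in the changes of the other gene groups was tested only by the scalings and the covariate described below. The one member that did not pass was Lyz2, the lysozyme of myeloid cells, with a log2 fold change of 2.37 and an adjusted p of 0.0581, and without library 81 its values were 2.00 and 0.00345.

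The list of border-associated macrophage markers showed the steepest rise of the macrophage lists, though which cells made its transcripts was not tested. All 9 members tested rose (median log2 fold change 4.44, or 4.02 without library 81). Lyve1, Cbr2 and Cd163 had at most 2, 4 and 5 reads in any adherent library. They reached the minimum count only through the neurosphere libraries and could not have been called lower, so the count and the median rest partly on that filter. Mrc1, the mannose receptor CD206, stood at 10.2, 24.8, 45 and 16.1 CPM in the adherent libraries and at 904, 293 and 494 CPM in the neurosphere libraries, a 24.0-fold difference (log2 fold change 4.59, standard error 0.58, adjusted p = 0.00556). The lowest neurosphere library, 90, still held several times the highest adherent one, 83. Cd163, the scavenger receptor for hemoglobin bound to haptoglobin, was near 0 in every adherent library (0.107, 0.495, 0.244 and 0.0923 CPM) and at 11.5, 18.8 and 10.5 CPM in the neurosphere libraries (log2 fold change 5.81, standard error 0.50, adjusted p = 0.00167). Lyve1, a hyaluronan receptor of perivascular macrophages and lymphatic vessels, was at 0, 0.198, 0.122 and 0 CPM against 4.47, 4 and 5.03 CPM, so that its adherent level rested on a few reads. The coagulation factor subunit F13a1 read 1.61, 17.2, 41.0 and 19.7 CPM against 564, 250 and 109 CPM, and the platelet factor 4 gene Pf4 read 0, 0.792, 1.59 and 2.12 CPM against 21.0, 31.3 and 20.9 CPM. Both were clear of overlap, and the neurosphere libraries themselves differed most in F13a1, with 89 the highest. The call of F13a1 was lost without library 82, 84, 89 or 90, with adjusted p from 0.0796 to 0.13 and log2 fold changes from 3.19 to 4.1.

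F13a1 and Pf4 are shown with their promoters because both hold, in capitals, the letters GAGGAAGT on one of the strands, a form of the site bound by PU.1, the factor that drives macrophage genes and that is encoded by Spi1. The sequences are RefSeq promoters of build GRCm38.p6, from 250 bases before to 50 after the start of transcription.
F13a1, chr13:37049164-37049463, minus strand: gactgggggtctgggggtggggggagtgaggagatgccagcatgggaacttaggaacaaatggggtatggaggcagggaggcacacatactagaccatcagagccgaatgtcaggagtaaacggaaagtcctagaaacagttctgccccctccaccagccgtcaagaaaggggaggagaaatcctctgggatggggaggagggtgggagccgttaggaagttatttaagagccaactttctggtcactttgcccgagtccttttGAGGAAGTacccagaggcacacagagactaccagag
Pf4, chr5:90772185-90772484, plus strand: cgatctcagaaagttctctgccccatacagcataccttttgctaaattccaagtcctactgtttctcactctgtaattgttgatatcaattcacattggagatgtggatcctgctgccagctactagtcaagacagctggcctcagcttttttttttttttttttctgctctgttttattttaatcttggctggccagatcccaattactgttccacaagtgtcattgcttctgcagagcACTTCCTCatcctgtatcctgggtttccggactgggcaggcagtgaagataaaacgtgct
The match lies at base 15 after the start in F13a1, on the strand shown, and at base -10 in Pf4, on the opposite strand. Of the 9 border-associated macrophage genes, 7 had a promoter in the table and 2 held the match (28.6%), beside 3.69% of all 27025 promoters and 3.83% of those of the genes tested. The share was lower in the general macrophage list (2 of 16 genes with a promoter, 12.5%) and among phagocyte receptors (1 of 14, 7.14%). Spi1 itself stood at 4.73, 21.7, 23.7 and 12.2 CPM in the adherent libraries and 130, 91.7 and 72.0 CPM in the neurosphere libraries (log2 fold change 2.68). Its call was lost without library 84, 89 or 90 (adjusted p from 0.0514 to 0.0774).

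Homeostatic microglia genes were also higher, though 4 of 10 members passed the test (median 2.35). Without library 81, 9 of 10 passed, with a median of 2.01. P2ry12, the purine receptor by which microglia sense injury, stood at 13.7, 13.1, 15.8 and 8.49 CPM against 84.7, 41.5 and 38.2 CPM (log2 fold change 2.14, adjusted p = 0.00958). Tmem119, a microglial membrane protein, read 2.26, 33.2, 25.8 and 18.3 CPM against 128, 110 and 68.0 CPM and did not pass with all libraries (log2 fold change 2.39, adjusted p = 0.0646), and neither did the fractalkine receptor gene Cx3cr1 (log2 fold change 2.55, adjusted p = 0.124). Their adherent and neurosphere values did not overlap. Of 11 monocyte genes tested, 2 rose and none fell, with a median of 1.68.

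The makeup of the macrophage signal was described by ratios. For every 100 CPM of the general macrophage list, the border-associated genes summed to 4.89, 4.68, 7.5 and 7.3 CPM in the adherent libraries and 14.5, 9.99 and 12.5 CPM in the neurosphere libraries, with no overlap. The microglia genes went the other way, with 27.0, 19.0, 17.2 and 22.4 CPM against 11.4, 11.1 and 13.7 CPM. No test was made of these ratios. When the libraries were instead scaled so that the 23 macrophage genes had equal totals, an alternative chosen after seeing the data, 13609 of 14448 genes were called (94.2%), and 11 of them were higher (0.0761%) and 13598 lower (94.1%). The 11 included the border-associated genes Cd163, Cbr2 and Pf4, the chemokines Ccl8, Ccl24 and Ccl7, and Pdcd1lg2, which encodes PD-L2. Of the 8 border-associated genes tested on this scale, 3 were higher and 5 did not pass, Mrc1 among the latter (log2 fold change 1.42, adjusted p = 0.0968).

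Genes of the phagocyte's digestive system followed. Of 13 lysosomal cathepsins, the proteases that break down engulfed protein, 10 rose and none fell (median log2 fold change 1.79, and 1.76 without library 81). Ctsb stood at 463, 631, 603 and 477 CPM against 2953, 2289 and 2628 CPM, with little spread inside either group (log2 fold change 2.30, standard error 0.18, adjusted p = 0.00139). Of 14 phagocyte receptors, 11 rose, among them the inhibitory Fc receptor Fcgr2b (log2 fold change 3.15) and the fungal glucan receptor Clec7a (2.96). Of 13 genes of lipid-associated macrophages, 8 rose and none fell. Arg1, the arginase that depletes arginine from the surroundings, read 10.3, 39.1, 85.3 and 35.6 CPM against 792, 527 and 937 CPM (log2 fold change 4.17, adjusted p = 0.00895), and the secreted matrix protein Spp1 read 27.4, 132, 149 and 78.7 CPM against 1142, 704 and 1169 CPM (log2 fold change 3.40). In both, library 81 was the lowest and the groups did not overlap.

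Chemokines, which recruit leukocytes, rose in 14 of 20 members with none lower (median 3.49). Ccl8, a ligand that attracts monocytes and lymphocytes, had the largest called fold change among the genes named by the rule: 0.645, 3.96, 2.93 and 1.75 CPM in the adherent libraries against 103, 126 and 226 CPM, a 66.1-fold difference (log2 fold change 6.05, standard error 0.51, adjusted p = 0.00167). Ccl24, an eosinophil attractant, was of similar size (log2 fold change 6.04, standard error 1.16), but its neurosphere values were 3.02, 6.96 and 68.7 CPM, so that library 91 carried most of it. It did not pass without library 82 (adjusted p = 0.0533) or 84 (0.0687). Ccl2, the main monocyte attractant, stood at 0.860, 5.15, 5.01 and 3.23 CPM against 47.5, 51.9 and 58.8 CPM (log2 fold change 3.91). The growth factor gene Csf1, the ligand of Csf1r, read 49.3, 54.7, 42.7 and 64.2 CPM against 54.6, 61.3 and 82.1 CPM, which overlapped and did not pass the test (log2 fold change 0.35, adjusted p = 0.334). With the libraries scaled on the genes that mark the GL261 line, Csf1 passed (log2 fold change 0.80, adjusted p = 0.0126).

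**Figure D2:**
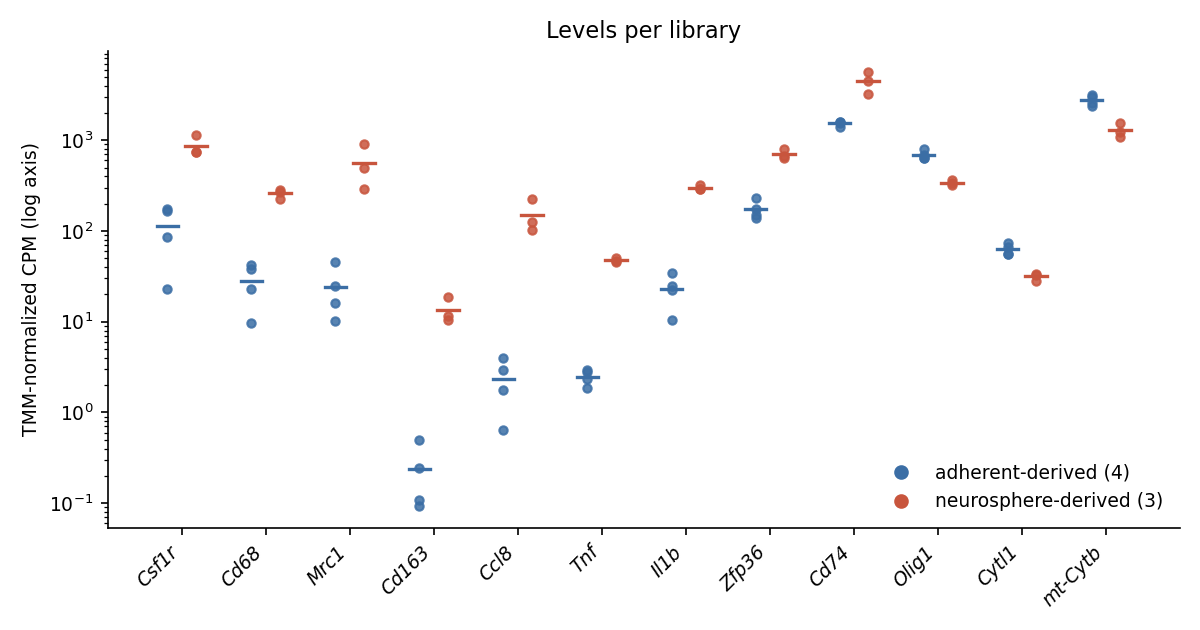
TMM-normalized CPM (log axis) of 12 genes in each of the 7 libraries, 1 point per library with the group mean as a bar, adherent-derived in blue and neurosphere-derived in red. Mrc1, Cd163, Ccl8 and Tnf are higher in all 3 neurosphere libraries, while Olig1 is lower in all 3 (321 to 365 against 633 to 802 CPM).

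Inflammatory cytokines and genes of the NF-kB pathway formed a group of their own. NF-kB is a transcription factor held in the cytoplasm by inhibitor proteins until a signal destroys them. Of 16 members tested, 14 rose and none fell (median log2 fold change 2.91), and 15 rose without library 81 (median 2.73). Tnf, the central inflammatory cytokine, stood at 2.90, 1.88, 2.32 and 2.77 CPM in the adherent libraries and at 46.0, 46.3 and 50.9 CPM in the neurosphere libraries. The values within each group were close together, and the difference was 19.6-fold (log2 fold change 4.29, standard error 0.19, adjusted p = 0.000123). Library 81, which had the fewest macrophage transcripts, had the highest Tnf of the adherent group. Il1b, a cytokine released by inflammasome activity, read 10.4, 25.1, 22.2 and 34.2 CPM against 290, 321 and 287 CPM (log2 fold change 3.72). Osm, a cytokine of the interleukin-6 family made by myeloid cells, read 13.3, 11.4, 12.0 and 13.2 CPM against 116, 78.2 and 81.6 CPM (log2 fold change 2.91). Neither gene overlapped between the groups.

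Relative to the macrophage signal, this group did not separate the libraries. For every 100 CPM of the macrophage list, the NF-kB group summed to 105 CPM in library 81, to 13.9, 16.2 and 33.3 CPM in libraries 82 to 84 and to 15.2, 19.0 and 20.1 CPM in the neurosphere libraries, so that the groups overlapped. With the macrophage score as a covariate in the same test, 13 genes were called higher (0.0951% of 13675) and 6 lower (0.0439%). The 13 were Gadd45b, Tnf, Pim1, Ccrl2, Tnfaip3, Atf3, Cxcl10, Nfkbiz, Ccl4, Nfkbia, Osm, Zfp36 and Cd14. The scores of the 2 groups do not overlap, so this fit extends a line drawn within the groups beyond the libraries that define it, and library 81 lies farthest from the others in it. Cxcl10, Nfkbia and Atf3 did not pass the test without the covariate. For Cxcl10, a chemokine that attracts activated T cells, the adherent values were 359, 88.4, 72.7 and 117 CPM and the neurosphere values 203, 200 and 195 CPM, with library 81 above all others, and it passed with a log2 fold change of 1.11 once that library was left out (adjusted p = 0.00326).

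The promoters of Tnfaip3, Cxcl10 and Ccrl2 are printed because they are the members of those 13 that hold the letters GGGNNTTCC, a form of the kB site that NF-kB binds. Tnfaip3 encodes A20, an inhibitor that NF-kB itself switches on, and Ccrl2 encodes a receptor that presents the attractant chemerin. The match is in capitals.
Tnfaip3, chr10:19015361-19015660, minus strand: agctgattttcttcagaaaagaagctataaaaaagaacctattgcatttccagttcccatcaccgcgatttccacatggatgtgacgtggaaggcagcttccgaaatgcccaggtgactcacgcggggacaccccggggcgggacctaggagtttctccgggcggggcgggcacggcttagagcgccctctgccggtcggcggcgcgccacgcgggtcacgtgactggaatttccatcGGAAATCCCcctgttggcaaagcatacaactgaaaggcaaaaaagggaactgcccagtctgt
Cxcl10, chr5:92348840-92349139, minus strand: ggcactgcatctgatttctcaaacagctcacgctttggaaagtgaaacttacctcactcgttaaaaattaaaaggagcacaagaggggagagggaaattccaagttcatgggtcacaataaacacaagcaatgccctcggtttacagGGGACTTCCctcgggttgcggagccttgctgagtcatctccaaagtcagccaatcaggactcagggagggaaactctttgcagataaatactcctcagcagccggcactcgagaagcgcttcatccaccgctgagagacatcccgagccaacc
Ccrl2, chr9:111057469-111057768, minus strand: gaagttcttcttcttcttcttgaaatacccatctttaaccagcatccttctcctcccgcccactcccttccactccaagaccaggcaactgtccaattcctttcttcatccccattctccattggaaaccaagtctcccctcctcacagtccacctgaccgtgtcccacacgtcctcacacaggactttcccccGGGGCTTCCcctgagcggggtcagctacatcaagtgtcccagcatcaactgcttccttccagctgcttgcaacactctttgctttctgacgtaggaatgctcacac
The match starts at base -12 in Tnfaip3, on the strand opposite to the one shown, at -103 in Cxcl10 and at -56 in Ccrl2, both on the strand shown. Both strands were searched. The letters were found in 3 of the 9 genes of the 13 that had a promoter in the table and in 3 of 13 such genes of the NF-kB list (Nlrp3, Tlr2 and Tnfaip3), beside 6.58% of all promoters and 8.45% of those of the genes tested. Tnfaip3 stood at 91.4, 41.1, 44.6 and 63.6 CPM against 263, 204 and 244 CPM (log2 fold change 2.01), and Ccrl2 at 25.1, 14.4, 18.2 and 18.4 CPM against 205, 154 and 152 CPM (3.2). Neither overlapped between the groups.

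Immediate early and stress genes, which are switched on within minutes of a stimulus or of tissue handling, rose in 9 of 22 members with none lower (median 1). Without library 81, 15 of 22 rose, with a median of 1.16. Zfp36, whose protein shortens the life of cytokine mRNAs, stood at 234, 152, 174 and 139 CPM against 808, 646 and 678 CPM (log2 fold change 2.06, standard error 0.20, adjusted p = 0.00254). Btg2, a growth-arrest gene, read 36.9, 40.6, 44.9 and 30.5 CPM against 191, 152 and 168 CPM (log2 fold change 2.19). The classical members Fos, Jun and Egr1 overlapped between the groups and did not pass, with log2 fold changes of 0.72, 0.23 and 0.27. Library 81 was the highest adherent library for all of these 3. Without it Fos (1.05, adjusted p = 0.00486) and Egr1 (0.68, adjusted p = 0.0358) passed, and with the libraries scaled on GL261-line genes Fos (1.2, adjusted p = 0.0204) and Jun (0.68, adjusted p = 0.0298) did.

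Antigen presentation rose on the class II side. Of 10 class II genes, 5 rose and none fell (median 1.15 with and without library 81). Cd74, the invariant chain that guides class II molecules, read 1560, 1586, 1420 and 1609 CPM against 5608, 4556 and 3268 CPM (log2 fold change 1.57, standard error 0.20, adjusted p = 0.00537). The adherent level of Cd74 was even across libraries, library 81 included. With the macrophage score as covariate Cd74 did not pass (log2 fold change 1.46, adjusted p = 0.115). Among the 10 class II genes, 4, Cd74 included, rose with the macrophage score over the sorted CT2A libraries, a class described below. Of 18 class I genes, 1 rose (median 0.09), and reads of such closely related class I and class II genes may be split among copies. Of 26 type I interferon response genes, 3 rose and none fell, with a median near 0, and 2 of 19 interferon-gamma response genes rose. Of 13 checkpoint genes, 6 rose: the T cell costimulators Cd80 (log2 fold change 2.14) and Cd86 (2.83) were among them, and Pdcd1lg2 read 0.215, 1.68, 1.22 and 1.11 CPM against 8.21, 16.1 and 35.5 CPM (4.24). Cd274, which encodes PD-L1, read 190, 93.4, 87.8 and 121 CPM against 282, 207 and 158 CPM, which overlapped (log2 fold change 0.84, adjusted p = 0.145). It passed without library 81 (1.11, adjusted p = 0.0134) and with the libraries scaled on GL261-line genes (1.33, adjusted p = 0.0169).

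**Figure D3:**
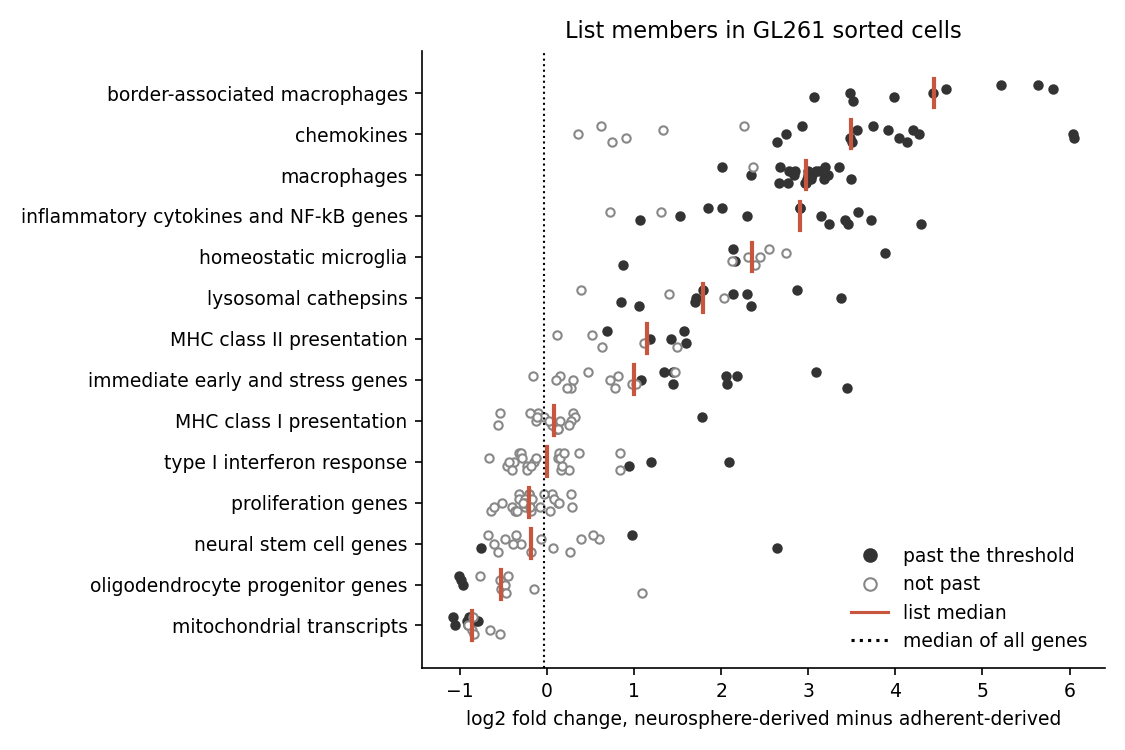
Log2 fold change (x axis, neurosphere-derived minus adherent-derived) of the members of 14 gene lists, 1 point per gene, filled where it passed the test, with the list median as a red bar and the median of all genes as a dotted line. The macrophage lists lie to the right, with medians of 2.98 for the general list and 4.44 for the border-associated one, and the oligodendrocyte progenitor and mitochondrial lists lie to the left (-0.53 and -0.86).

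Markers of other cell types were examined next, beginning with red blood cells. All 4 globin genes tested rose. They had at most 18 reads in any adherent library and reached the minimum count only through the neurosphere libraries, so a lower call was not possible. Hbb-bs, an adult beta globin, stood at 1.5, 0.198, 0 and 0 CPM against 23.8, 11.8 and 30.6 CPM (log2 fold change 5.70, standard error 0.91, adjusted p = 0.0101). Without library 89 it did not pass (adjusted p = 0.0523). Without library 81 the fitted value was 8.08 (adjusted p = 0.000684) and the median of the erythroid list moved from 5.1 to 7.3, fits that rest on very few adherent reads. Reads of the near-identical globin copies may be shared among them. Summed over the erythroid list, the neurosphere libraries held 54.9, 28.6 and 77.9 CPM, the adherent libraries at most 3.66 CPM, and whole GL261 tumors 71.7 to 150.2 CPM. Of 4 NK cell genes tested 2 rose (median 2.46), the granzyme genes of cytotoxic lymphocytes Gzma (4.32 on the log2 scale) and Gzmb (3.17), while of 7 T cell genes tested none passed and the median was 0.05. Of 4 B cell genes tested 2 rose (median 2.45), the surface gene Cd22 by 2.90 and Cd79b, a chain of the B cell receptor, by 2.59 (adjusted p = 0.0383). The B cell genes Cd79a and Ms4a1 were too low to test, with at most 0.799 and 0.369 CPM. So were the NK cell genes Ncr1, Klrb1c and Klrd1 (0.685, 1.44 and 1.8 CPM), and which cells made the called transcripts was not tested. Gzma and Cd79b had at most 7 and 8 reads in any adherent library and reached the minimum count only through the neurosphere libraries. Cd79b read 0.215, 0.693, 0.978 and 0.277 CPM against 5.07, 2.85 and 1.68 CPM. Gzmb and Cd22 each lost their call without library 84, 89, 90 or 91, with adjusted p from 0.0505 to 0.0776. Cd79b did not pass without library 82, 84, 89 or 90 (adjusted p from 0.0795 to 0.182). Of 4 dendritic cell genes 1 rose, the integrin gene Itgax (log2 fold change 2.69, adjusted p = 0.0318), which is also in the phagocyte receptor list, and of 7 pericyte and smooth muscle genes 1 rose, the actin gene Acta2 (1.02, adjusted p = 0.0342), and 3 of 7 without library 81. Itgax did not pass without any single library other than 81 (adjusted p from 0.0526 to 0.130), nor Acta2 without any other than 81 or 83 (0.0649 to 0.153). Of 12 endothelial, 10 oligodendrocyte, 10 astrocyte and 5 neuronal genes tested, none passed in either direction. Of 4 neutrophil genes tested 1 rose, the collagenase gene Mmp8, which read 0.537, 0.792, 2.32 and 2.21 CPM against 7.13, 8.45 and 5.63 CPM (log2 fold change 2.29, adjusted p = 0.0317) and did not pass without any single library other than 81 or 83 (adjusted p from 0.0626 to 0.126). Without library 81, 2 of these 4 rose and 1 fell. Of the genes that define neutrophils, Ly6g reached at most 0.122 CPM and Ngp 0.228 CPM in any of the 7 libraries.

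To separate genes of macrophages from genes of the tumor cells, classes were drawn from libraries outside the comparison. The CT2A bulk tumors and CT2A sorted cells could not do this for macrophages. None of the 23 macrophage genes was called more than 2-fold higher in the bulk tumors than in the sorted cells. A class of macrophage-tracking genes was therefore defined, after the data had been seen, as the genes whose level rose with the macrophage score over the 8 sorted CT2A libraries within groups (399 of 13150 fitted genes, 3.03%, of which 21 belong to the score itself). Of 374 such genes tested in GL261, 246 were higher (65.8%, beside 7.58% of all genes) and none was lower (median 1.91). The slope leaned on CT2A neurosphere library 59: without it 76 genes were called, and of the 63 tested in GL261, 56 were higher.

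Of the 1037 higher genes, 22 were in the macrophage list, 246 tracked the macrophage score as defined above, and 653 were in none of the classes and outside the macrophage list. These 653 were 6.01% of the 10866 tested genes so placed, beside 7.58% of all genes tested. In the groups drawn from CT2A, 104 of 1838 genes higher in bulk tumors (5.66%) and 57 of 511 genes higher in sorted cells (11.2%) were higher in neurosphere-derived GL261 cells, with medians of -0.13 and 0.06. Because the sorted-side class includes macrophage genes such as Mrc1, it is not a class of tumor genes.

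Genes that mark the tumor line had a lower median than genes at large. Of 144 tested genes that mark GL261 against CT2A, none rose and 3 fell, and their median log2 fold change was -0.47. Without library 81, none rose and 15 fell, with a median of -0.43. Their summed level was 9687, 7345, 7797 and 8044 CPM in the adherent libraries and 5364, 5793 and 5932 CPM in the neurosphere libraries, without overlap. The 3 that fell were Cytl1, Dppa4 and Gm16026. Cytl1, a secreted cytokine-like protein, read 65.9, 73.9, 56.1 and 56.3 CPM against 28.1, 33.0 and 33.9 CPM (log2 fold change -0.96, standard error 0.15, adjusted p = 0.00966). It did not pass without library 89 (adjusted p = 0.0543), and Dppa4 and Gm16026 did not without any single library other than 81 (adjusted p from 0.0510 to 0.176). When the libraries were scaled on these line genes instead, an alternative chosen after seeing the data, the median of all genes moved to 0.41 and the median of the line genes, by construction, to near 0 (-0.02), 3242 of 13691 genes were called (23.7%), 3218 of them higher (23.5%) and 24 lower (0.175%), and Cytl1, with a log2 fold change of -0.53, no longer passed (adjusted p = 0.0528). All 1037 higher genes and 23 of the 130 lower genes were called on both scales.

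**Figure D4:**
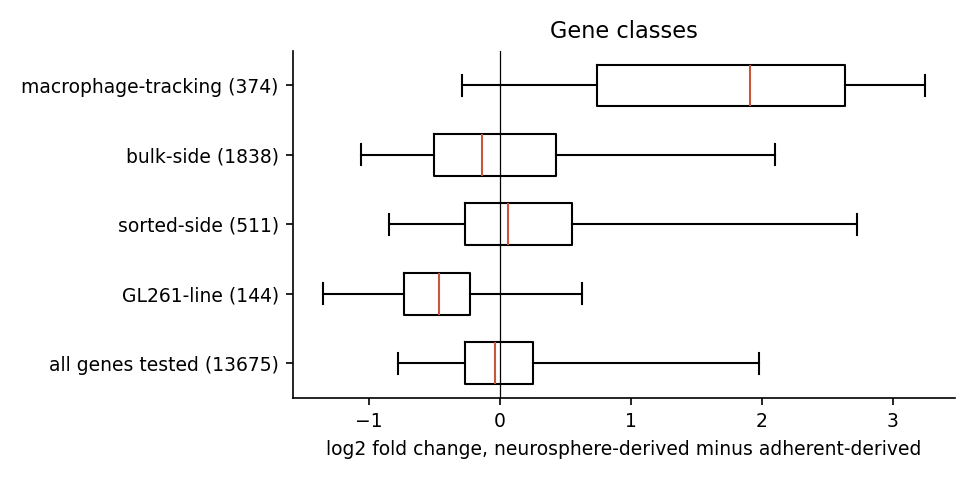
Log2 fold changes (x axis, neurosphere-derived minus adherent-derived) of the gene classes, with the number of genes in parentheses; boxes span the quartiles, red lines mark medians and whiskers run from the 5th to the 95th percentile. The macrophage-tracking genes are shifted to the right (median 1.91) and the GL261-line genes to the left (median -0.47).

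Genes of the oligodendrocyte progenitor program, which GL261 cells express strongly, were among those that fell. Of 11 tested, 3 fell and none rose (median -0.53), and without library 81 the count was 6 (median -0.61). On the line-gene scale the median was -0.08 and 1 of 11 fell. Olig1, a transcription factor of the oligodendrocyte lineage, stood at 802, 640, 633 and 685 CPM against 321, 338 and 365 CPM, with a wide gap between the groups (log2 fold change -0.99, standard error 0.14, adjusted p = 0.00748). It was lower on the line-gene scale too (log2 fold change -0.54, adjusted p = 0.0255), but did not pass in a fit of all 6 groups of the series (adjusted p = 0.0528). Bcan, a proteoglycan of brain matrix, read 112, 85.2, 86.7 and 102 CPM against 35.5, 38.4 and 67.0 CPM (log2 fold change -1.01, adjusted p = 0.0367). It lost its call without any one of libraries 82, 83, 84, 89 and 90 (adjusted p from 0.0621 to 0.163). Sox10, the lineage regulator, read 1150, 833, 774 and 766 CPM against 573, 638 and 693 CPM and did not pass (log2 fold change -0.44, adjusted p = 0.185, and 0.00052 on the line-gene scale).

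Neural stem cell genes, the group for which neurosphere culture is known, did not rise together. Of 17 tested, 2 rose and 1 fell, with a median of -0.18. Id1, an inhibitor of differentiation factors, stood at 16.1, 22.7, 21.8 and 14.9 CPM against 37.0, 37.3 and 35.2 CPM (log2 fold change 0.98, adjusted p = 0.0181). The RNA-binding stem cell gene Msi1 fell by 0.76 on the log2 scale (adjusted p = 0.0381), and Sox2, a core factor of neural stem cells, overlapped between the groups at 220, 238, 226 and 256 CPM against 189, 226 and 195 CPM (log2 fold change -0.18, adjusted p = 0.464, and 0.26 on the line-gene scale). Of 30 proliferation genes, none passed with all libraries (median -0.20 on the default scale and 0.23 on the line-gene scale). The division marker Mki67 had a log2 fold change of -0.25 (adjusted p = 0.41), which turned to 0.20 on the line-gene scale. Id1 did not pass without library 84, 89 or 90 (adjusted p from 0.0575 to 0.0859), nor did Msi1 without any single library other than 81 (0.0632 to 0.158).

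Among lists of other pathways counted to the tumor cells, most showed few calls, though which cells made the transcripts was not tested. Of 20 cholesterol synthesis genes, 14 YAP/TAZ targets and 15 receptor tyrosine kinases, none rose, and in the last group the hepatocyte growth factor receptor gene Met fell by 0.92 on the log2 scale (adjusted p = 0.0485), which it did not on the line-gene scale (log2 fold change -0.46, adjusted p = 0.156). In the Notch pathway 1 of 15 genes rose and 1 fell: Lfng, a glycosyltransferase that modifies Notch, read 4.83, 7.63, 9.41 and 5.63 CPM against 40.7, 32.8 and 22.9 CPM (log2 fold change 2.25, adjusted p = 0.00597), and the ligand Dll1 read 43.4, 20.3, 24.9 and 32.1 CPM against 15.6, 14 and 12.7 CPM (log2 fold change -1.06, adjusted p = 0.0459, and 0.117 on the line-gene scale). Met and Dll1 each lost their call without any one of libraries 83, 84, 89, 90 and 91 (adjusted p from 0.0650 to 0.157). Tubb3, a neuronal tubulin, read 195, 136, 120 and 210 CPM against 66.8, 74.5 and 84.6 CPM and fell by 1.10 on the log2 scale (adjusted p = 0.0212). Its call was lost without library 84, 89, 90 or 91, with adjusted p from 0.0515 to 0.112. Of 14 mesenchymal genes 6 rose (42.9%, beside 7.58% of all genes), and of 14 macrophage growth factors and recruiting ligands 4 rose (28.6%). Among the higher mesenchymal genes was Tgfbi (log2 fold change 2.90), a matrix protein that macrophages also make and that tracked the macrophage score in CT2A. Tgfbi did not pass without library 89 (adjusted p = 0.0528).

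Transcripts of the mitochondrial genome fell: 7 of 13 were lower and none was higher (median -0.86), and without library 81 the count was 12 (median -1.01). mt-Cytb, the cytochrome b of complex III, stood at 2373, 2999, 3171 and 2591 CPM against 1091, 1248 and 1556 CPM, a clear separation (log2 fold change -1.07, standard error 0.18, adjusted p = 0.0126). It did not pass without library 89 (adjusted p = 0.0697) or 90 (0.0679). On the line-gene scale its log2 fold change was -0.65 (adjusted p = 0.0484), and 1 of 13 fell.

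The same contrast was available in CT2A, where 5 neurosphere-derived libraries (57 to 61) were set against 3 adherent-derived ones (69 to 71), all sorted in the same way. The titles of these 5 name GL261, but their cell line and description fields name CT2A, and their GL261-line genes summed to at most 272.1 CPM. Of 13827 genes in the joint fit, 131 were called in CT2A (0.947%), 30 of them higher (0.217%) and 101 lower (0.73%). Without CT2A neurosphere library 60, 34 were higher and 223 lower of 13839 tested. The neurosphere effect differed between the lines in 921 genes (6.66%), 788 of them with a more positive effect in GL261 (5.7%) and 133 with a more negative one (0.962%). That number was 261 without GL261 neurosphere library 89, 457 without 90, 266 without CT2A adherent library 71, 612 without CT2A neurosphere library 57 and 599 without 61.

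The rise of macrophage genes was not seen in CT2A. Of the 23 macrophage genes, none passed there (median 0.21, 16 of 23 above 0), and the effect was more positive in GL261 in 11 of them. Cd68 stood at 27.3, 30 and 58.4 CPM in the adherent CT2A libraries and at 32.3, 22.6, 83.4, 46.0 and 26.1 CPM in the neurosphere ones. They overlapped throughout, and the difference between the lines was 3.06 on the log2 scale (standard error 0.66, adjusted p = 0.0165). Of the border-associated genes, none passed in CT2A and 5 of 8 differed between the lines, Cd163 with 5.26 (standard error 0.80, adjusted p = 0.00355). Csf1r itself did not pass this test (difference 2.57, adjusted p = 0.0758).

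Immediate early and stress genes rose in both lines. In CT2A 13 of 22 rose, with a median of 1.72, and 13 rose with a median of 1.4 without CT2A library 60, the highest for this list. None of the 22 had a more positive effect in GL261, and Jun had a more negative one (difference -1.13, adjusted p = 0.0428). Zfp36 read 115, 98.1 and 90.1 CPM in the adherent CT2A libraries against 230, 325, 537, 372 and 236 CPM, and its effect was 1.76 there (standard error 0.27, adjusted p = 0.0109) beside 2.03 in GL261 in the same joint fit, with a difference of 0.27 (standard error 0.36, adjusted p = 0.705). Of the 16 NF-kB genes 3 rose in CT2A and 5 had a more positive effect in GL261, among them Il1b (difference 2.32, adjusted p = 0.0187). Tnf was not among them: its effect in CT2A was 3.28 (standard error 0.76, adjusted p = 0.0611) and the difference 0.99 (standard error 1, adjusted p = 0.596).

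**Figure D5:**
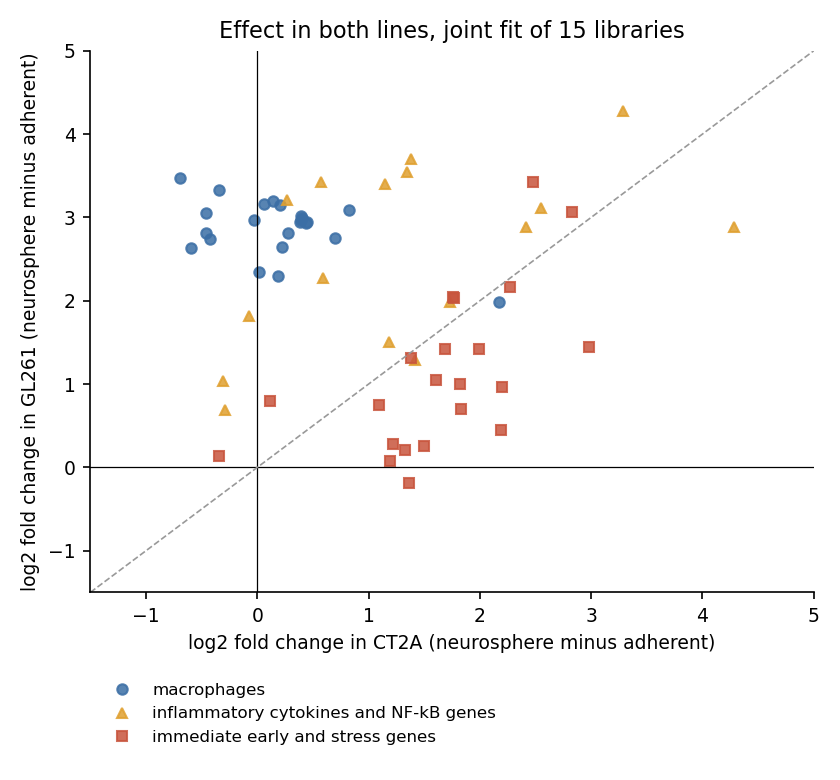
Log2 fold change of neurosphere-derived over adherent-derived cells in CT2A (x axis) and GL261 (y axis) from the joint fit of 15 libraries, 1 point per member of 3 lists (macrophages as blue circles, NF-kB genes as yellow triangles, immediate early and stress genes as red squares), with a dashed line where both effects are equal. Macrophage genes lie high in GL261 and around 0 in CT2A (median 0.21), apart from Cd14, and most immediate early genes lie above 0 in both lines (median 1.72 in CT2A).

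Several genes with the smallest p for the difference between the lines started from very different levels. Pdgfc, a ligand of the platelet-derived growth factor receptor alpha, rose in GL261 from 1.18, 2.38, 2.57 and 2.40 CPM to 19.0, 13.3 and 16.8 CPM, while all 8 sorted CT2A libraries held 121 to 166 CPM (difference between the lines 2.86, standard error 0.27, adjusted p = 0.000368). Pdpn, the podoplanin of lymphatic vessels, glia and some macrophages, rose in GL261 from 1.07, 1.39, 2.20 and 1.85 CPM to 14.2, 15.1 and 16.9 CPM, beside 27.5 to 57.0 CPM in the CT2A libraries (difference 2.96, adjusted p = 0.000804). Olig1 fell in both lines, by 2.7 on the log2 scale in CT2A, but from at most 3.46 CPM there, and the difference of 1.69 did not pass (adjusted p = 0.118). Of the mitochondrial transcripts, 4 fell in CT2A and none differed between the lines.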

How the data were processed

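RNA libraries were made (NEBNext Ultra II kit per the labels; for sorted cells the study's methods name an NEB Ultra Directional kit, and whether strand was used in counting is not given in the sources used here) from RNeasy-extracted total RNA of the ex vivo tumors. The deposited transcript tables hold expected counts made by the authors with Salmon on the mouse transcriptome (GRCm38/mm10). The submitters' processing notes also name STAR 2.7.7a, RSEM 1.3.3 and DESeq2 1.30.1, and the RSEM tables were not used. The TPM values in the same tables, also made by the authors with Salmon and scaled to effective transcript length, served as an alternative scale. Estimated counts of 116546 transcripts were summed to 35576 genes and rounded, with 180 transcripts without a gene (0.0413% to 0.152% of reads) left out. Genes whose mean count after TMM normalization exceeded 10 were tested with edgeR 4.0.16 (R 4.3.3, robust quasi-likelihood fit, Benjamini-Hochberg adjusted p under 0.05), and positive log2 fold changes mean higher in neurosphere-derived cells. Standard errors were derived from the F statistic. CPM of single genes are TMM-normalized within the 7 libraries (15 for CT2A values), and list sums and scores use CPM without TMM. DESeq2 1.42.0 and limma 3.58.1 served for alternatives. The scripts were tested on simulated data. Precision is limited by 3 and 4 libraries per group and, for low genes, by counting error.

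The lines were compared by an interaction term in a joint fit of the 15 sorted libraries. Lists were described by counts and medians only. The members, the 40 gene lists and the classes were chosen with earlier results of these data known. Genes were named by rule (the 12 highest and 12 lowest called changes without overlap and at least 10 CPM, up to 4 each way per list, list-defining genes, the 8 smallest p each way of the interaction), some being left out for length, and Csf1, Fos, Jun, Egr1, Sox2, Mki67, Tmem119, Cx3cr1, Lyz2 and the genes of the covariate fit were named whatever their value or after it was seen. Alternatives covered normalization, filter, tool, length offset, the macrophage score as covariate, all 6 groups in 1 fit and each library left out. Scaling on line genes or on macrophage genes, the macrophage-tracking class, and leaving out library 81, CT2A library 59 or CT2A library 60 for lists and classes were chosen after seeing the data. Promoters are from RefSeq, and genes without an entry were not searched.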

Additional observations from a re-analysis of the deposited data

Results flagged for a closer look

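Marker-list scores (mean log2(CPM + 1)) were checked for a library far from the rest of its group in 80 groups of 4 or 5 libraries, and chance alone marks about 1 in 20 of such groups. Adherent-derived GL261 library 81 lay far below its group for T cell genes (0.987) and complement genes (4.55). CT2A neurosphere library 60 lay far above its group for oligodendrocyte genes (3.15), neuronal genes (1.6), NF-kB genes (4.85) and immediate early and stress genes (8.06). CT2A neurosphere library 61 was far above its group for cholesterol synthesis genes (6.02).

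The neurosphere effect differed between GL261 and CT2A in 921 genes by the interaction test. With the smallest p among genes of at least 10 CPM, the difference (GL261 minus CT2A, log2) was 2.86 for Pdgfc, 1.62 for Cux1, 2.96 for Pdpn, 1.54 for Acp2, 1.80 for Ets2, 2.16 for Mmp14, 1.41 for Itpripl2 and 1.54 for Wdfy2. In the other direction it was -1.47 for Gm11127, -1.38 for Ccl25, -1.21 for Rcor2, -1.72 for Tubb3, -1.27 for Zfp773, -1.87 for Ptprf, -1.64 for Gm37515 and -0.80 for Phlpp1.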

How the results depend on the processing

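No paired analysis was possible because the libraries of the 2 groups share no replicate numbers. The count of 1167 genes between neurosphere-derived and adherent-derived GL261 cells became 1873 with DESeq2 (1390 higher, 483 lower), 19 with the macrophage score as covariate, 3242 with scaling on GL261-line genes and 13609 with scaling on the macrophage list, and leaving out 1 library gave 297 to 2435. DESeq2 lowered the share of higher calls from 88.9% to 74.2%, a fit of all 6 groups to 74.4%, and scaling on sorted-side genes to 75.1%. Both edgeR and DESeq2 called 1036 of the 1037 higher and all 130 lower genes. The count of 921 genes that differed between the lines became 1541 with DESeq2, and 261 to 1268 with 1 library left out. A class threshold of 2 on the log2 scale lowered the share of bulk-side genes that were higher from 5.66% to 3.33%. Over the 40 lists, 157 members were called, 213 without library 81 and 154 with scaling on sorted-side genes. With the covariate the log2 fold changes of Csf1r (-0.20), Ptprc (-0.60), Lyz2 (-0.96), F13a1 (-0.79), Tmem119 (-1.42), Cx3cr1 (-2.67), Cd79b (-0.35), Itgax (-0.66) and Sox10 (0.18) turned sign, and with line-gene scaling those of Sox10 (0.00052), Sox2 (0.26) and Mki67 (0.20) did. The causes were not tested.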

Other observations

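Among the lower genes named by the rule, Ly6c1, a surface protein of endothelial and some lymphoid cells, read 139, 94.1, 123 and 178 CPM in adherent libraries 81 to 84 and 57.3, 64.1 and 45.6 CPM in neurosphere libraries 89 to 91. It fell by 1.23 on the log2 scale (edgeR, adjusted p = 0.0174) and was lower with line-gene scaling as well (-0.76, adjusted p = 0.0348). Armcx6, an X-linked armadillo-repeat gene, read 44.0, 36.1, 33.5 and 36.8 CPM against 15.8, 17.2 and 18.3 CPM and fell by 1.10 on the log2 scale (adjusted p = 0.00668). Tmod1, which caps actin filaments, read 18.3, 17.2, 17.9 and 17 CPM against 10.2, 5.93 and 5.51 CPM (log2 fold change -1.25, adjusted p = 0.0211), and with line-gene scaling it did not pass (adjusted p = 0.0814). None of these 3 overlapped between the groups. Ly6c1 lost its call without library 89, 90 or 91 (adjusted p from 0.0516 to 0.0824), and Tmod1 without library 82, 83, 84, 90 or 91 (0.0514 to 0.0902).

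Other higher genes named by the rule were Mmp14, Tgfb1 and Ets2. Mmp14, a membrane-bound protease that opens collagen matrix, read 63.9, 76.5, 81.9 and 56.8 CPM against 452, 304 and 243 CPM (log2 fold change 2.29, adjusted p = 0.00305), and Tgfb1, a growth factor that restrains immune cells, read 14.9, 32.8, 34.2 and 22.9 CPM against 131, 104 and 112 CPM (log2 fold change 2.17, adjusted p = 0.00597). The transcription factor gene Ets2 read 16.9, 22.9, 22.4 and 19.3 CPM against 91.9, 79.1 and 94.0 CPM (log2 fold change 2.15, adjusted p = 0.000976). All 3 were more positive in GL261 than in CT2A by the interaction test, with differences of 2.16, 2.49 and 1.80. The 6 genes lower with the macrophage score as covariate were Fry, BC034090, Agap2, Hpcal4, Itga4 and Dock10.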
